A study of Mus musculus with 6 samples.

Results

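The joining (Jκ) and constant (Cκ) genes of the mouse Igk locus, with the enhancers that flank them, were examined in the peak lists of pre-B cells. The window was mm9 chr6:70655000-70720000, and its members were the genes Igkj1, Igkj2, Igkj3, Igkj4, Igkj5 and Igkc and every listed peak or region that overlaps it. It held 27 of the 102769 peaks and regions of the 3 lists, namely 15 of 69345 H3K27ac peaks, 7 of 17979 H3K4me3 regions and 5 of 15445 Pax5 peaks. The cells were RAG-/- µ+ pre-B cells of C57BL/6 bone marrow from mice of both sexes aged 6-14 weeks, which lack V(D)J recombinase and carry a rearranged IgM transgene. All 3 lists share this genotype and each comes from 1 library, so no value below has a replicate check and no test was made. The lists hold no read counts, so their depth is unknown, and the 3 matching inputs were not analysed here.

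The light chain gene is assembled by joining a Vκ gene to a Jκ gene, after which the Jκ exon is spliced to Cκ. Before this happens the unrearranged Jκ-Cκ region is transcribed from germline promoters upstream of Jκ1. The intronic enhancer iEκ lies between Jκ5 and Cκ, while the 3′ enhancer 3′Eκ and the more distant enhancer Ed lie downstream of Cκ. H3K4me3 marks active promoters and is bound by the RAG2 subunit of the recombinase, H3K27ac marks active promoters and enhancers, and Pax5 is a transcription factor that defines the B lineage. The lists and the annotation do not name these enhancers, so the stretches after Cκ were set by their distance from its end.

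The recombination signal sequence (RSS) before each Jκ gene is the site that RAG cuts, and it is shown with the Jκ exon because all the marks below are read against it. In each line the capitals mark the nonamer and then the heptamer, and the bases after the heptamer are the Jκ exon up to its splice donor.
Igkj1: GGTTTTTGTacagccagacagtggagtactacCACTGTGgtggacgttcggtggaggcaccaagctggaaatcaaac
Igkj2: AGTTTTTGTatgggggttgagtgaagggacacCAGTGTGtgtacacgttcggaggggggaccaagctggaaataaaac
Igkj3: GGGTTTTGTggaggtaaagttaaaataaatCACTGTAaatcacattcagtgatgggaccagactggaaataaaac
Igkj4: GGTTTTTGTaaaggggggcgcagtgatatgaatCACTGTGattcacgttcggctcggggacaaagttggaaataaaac
Igkj5: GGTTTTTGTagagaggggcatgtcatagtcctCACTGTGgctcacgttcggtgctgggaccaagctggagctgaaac
Igkj1 lies at chr6:70672556-70672593 on the plus strand, Igkj2 at chr6:70672910-70672952, Igkj3 at chr6:70673217-70673252, Igkj4 at chr6:70673542-70673579 and Igkj5 at chr6:70673880-70673921. Igkc, a single exon of 323 bp, lies at chr6:70676429-70676751, after an intron of 2507 bp. The heptamer, counted from its 5′ base against CACTGTG, had no difference at Igkj1, Igkj4 and Igkj5. It had C3G at Igkj2 and G7A at Igkj3. With a spacer of 23 bases, the nonamer matched GGTTTTTGT at Igkj1 and Igkj5, had G1A at Igkj2, and had 5 differences at Igkj3 and 4 at Igkj4. When spacers of 21 to 24 bases were searched, a choice made after those values were seen, Igkj4 had no difference with 24 bases and Igkj3 had T3G with 21 bases, and these are the nonamers in capitals. The 2 bases after the annotated end were GT at Igkj1, Igkj2, Igkj4 and Igkj5 and AC at Igkj3. The annotated ends of Igkj2, Igkj3 and Igkj5 do not coincide with the shared TAAGT of the donor, and the exons printed end just before the donor read from it, a choice also made after the annotation was seen. By that reading the donor was CT at Igkj3 and GT at the other 4 genes. With the searched spacers, Igkj2 and Igkj3 thus each had 1 difference at the heptamer and 1 at the nonamer. Only Igkj3 departed from the others at the donor. The exons were 68.4% to 84.2% identical over the 10 pairs, aligned without gaps at the donor.

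The stretch of iEκ around its NF-κB site is shown next, at chr6:70675729-70675903 on the plus strand, because a Pax5 peak and an interruption of H3K4me3 meet there. Capitals mark GGGACTTTC, most of the NF-κB site, and E boxes (CANNTG), the sites of E proteins such as E2A. The place of iEκ was taken from this GGGACTTTC match.
intronic enhancer: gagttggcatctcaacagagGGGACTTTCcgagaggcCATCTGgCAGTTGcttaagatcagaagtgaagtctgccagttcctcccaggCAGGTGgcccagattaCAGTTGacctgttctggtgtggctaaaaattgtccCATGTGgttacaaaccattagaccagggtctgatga
The second stretch, chr6:70685602-70685851 on the plus strand, is the gap in H3K27ac under the strongest Pax5 peak of the window with the next 50 bp. Capitals mark E boxes and the ETS-IRF composite motif, in which GGAA, the core of an ETS factor site, and GAAA, part of an IRF site, are separated by any 2 bases.
3′ enhancer: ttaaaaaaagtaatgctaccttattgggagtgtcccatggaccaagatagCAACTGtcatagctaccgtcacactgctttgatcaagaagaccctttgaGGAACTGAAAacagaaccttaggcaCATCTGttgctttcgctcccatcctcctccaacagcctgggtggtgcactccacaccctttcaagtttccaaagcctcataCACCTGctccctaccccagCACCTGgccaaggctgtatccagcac

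**Figure D1:**
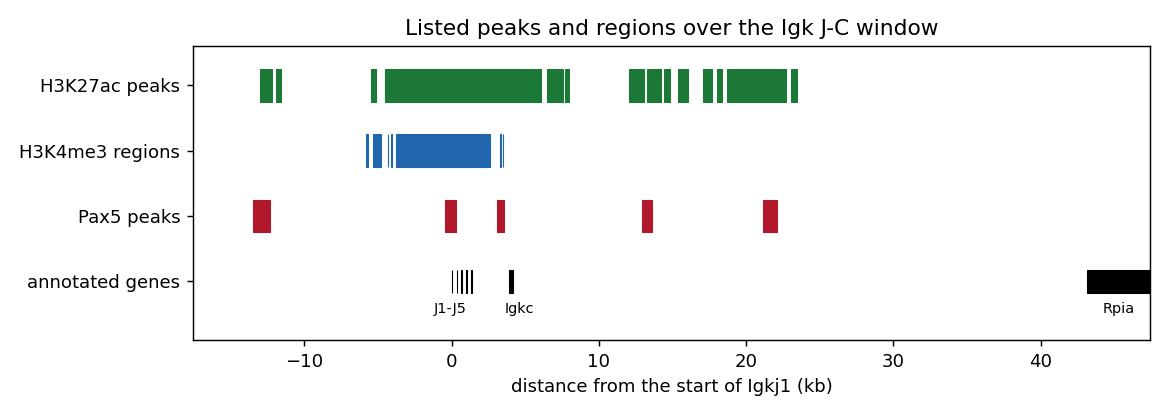
All listed peaks and regions of the window are drawn to scale against their distance from the start of Igkj1 in kb, with annotated genes in black and outlines that keep the narrowest rows visible. H3K4me3 stopped before Igkc, H3K27ac went on to 23417 bp from the start of Igkj1, and the last 24027 bp of the window held no row.

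H3K27ac covered Jκ and Cκ in 1 peak. This peak, chr6:70668043-70677714, was 9672 bp wide and held all 6 genes. It began 4513 bp before Igkj1 and ended 963 bp after Igkc. Its score of 84.8, on the authors' unnamed scale, ranked 1250 of 69345, above 98.2% of the list. By width it ranked 19, and of the 19 H3K27ac peaks at least this wide, 9 lay more than 10000 bp from a protein-coding start. The start nearest to this peak was 64512 bp away. Over the whole H3K27ac list, 51.0% of peaks lay more than 10000 bp from such a start.

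H3K4me3 covered the Jκ genes and not Cκ. Its main region, chr6:70668771-70675195, was 6425 bp of unbroken 25 bp bins and held Igkj1 to Igkj5. It began 3785 bp before Igkj1, ended 1274 bp after Igkj5 and stopped 1234 bp before Igkc. It ranked 6 by width among 17979 regions. The 5 wider regions lay at Pax5, Tnrc18, Gm11029, Bcl11a and Brd2, each on or within 10000 bp of a protein-coding start. The Igk region was the 1 of the 6 farther than that, at 67031 bp, and over the whole H3K4me3 list 21.05% of regions were. Jκ and Cκ genes are annotated as immunoglobulin genes, so they do not count as protein-coding starts here. The region at Gm11029, a predicted gene, was that of the Igh locus, 8300 bp wide and 6541 bp from the start. Of the H3K4me3 in the window, 87.4% of bp lay in this region, and all of it lay inside the wide H3K27ac peak.

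The other 6 H3K4me3 regions were short, from 25 to 525 bp. Upstream of the main region lay chr6:70666746-70666920, chr6:70667221-70667745, chr6:70668221-70668245 and chr6:70668471-70668545, the farthest beginning at -5810 bp from the start of Igkj1. Downstream, chr6:70675821-70675920 and chr6:70676046-70676070 lay in the Jκ-Cκ intron. Between the main region and these 2 lay a gap of 625 bp, chr6:70675196-70675820. The NF-κB site core at chr6:70675749 lay inside this gap, 554 bp after the main region ended. The gap had a GC content of 32.3%, against 39.5% in the main region, and the part of it before the NF-κB site had 29.3%. All 31-mers of the gap occurred once in the genome. Whether base composition had a part in the gap was not tested. The last H3K4me3 bin ended 359 bp before Igkc, and none lay farther downstream in the window.

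**Figure D2:**
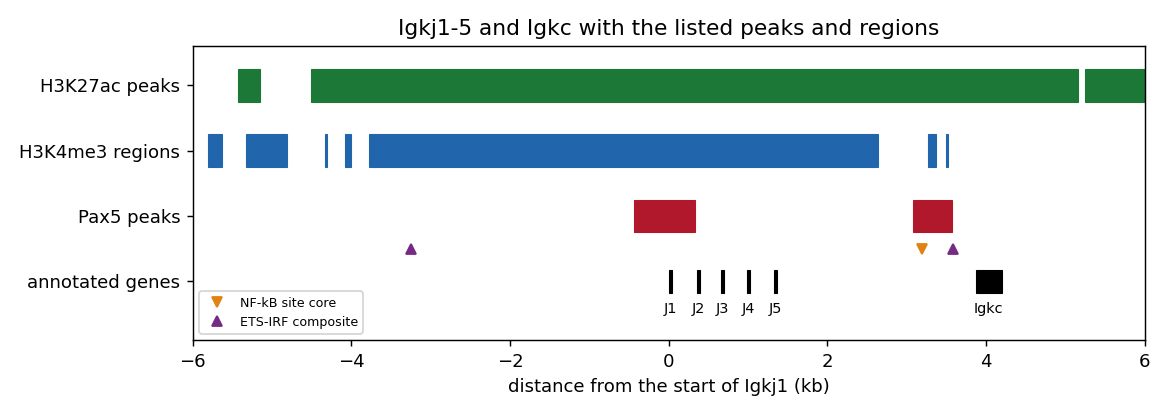
The 12 kb around the Jκ and Cκ genes are drawn to scale against distance from the start of Igkj1 in kb, with listed rows as bars, genes in black and triangles at 3 motif matches. The wide H3K4me3 region ended before the NF-κB site core, while H3K27ac ran through it and past Igkc.

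Pax5 had 2 peaks within the wide H3K27ac peak, and both were low in their list. The peak chr6:70672120-70672882 spanned Igkj1 and its RSS, from 436 bp before to 326 bp after the start of Igkj1. Its score of 103.2 was above 10.6% of Pax5 peaks. Igkj1 was the only member gene that Pax5 touched. The peak chr6:70675640-70676124 lay in the intron over the NF-κB site core of iEκ and its E boxes, with a score of 135.9, above 27.8% of the list. At 485 bp it was narrower than all but 1.61% of Pax5 peaks.

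Upstream, in the interval between the last Vκ gene, Igkv3-1, and Jκ, a Pax5 peak and 3 H3K27ac peaks were listed. The Pax5 peak chr6:70659077-70660268 had a score of 462.0, above 81.2% of the list. The H3K27ac peak chr6:70659524-70660364 overlapped it, with a score of 15.9, above 74.3% of its list. The next, chr6:70660676-70660962, scored 8.16, near the list median of 8.52. The third, chr6:70667123-70667407, scored 7.38 and ended at -5149 bp from the start of Igkj1. A gap of 6160 bp without H3K27ac lay between the last 2. Elements known as Cer and Sis lie in this interval, but the lists do not place them.

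Downstream of Cκ the marks were H3K27ac and Pax5 alone. Within 5000 bp after Igkc lay 3 H3K27ac peaks, chr6:70677808-70678657, chr6:70679014-70680145 and chr6:70680283-70680525, with scores of 13.3, 12.4 and 6.64. None overlapped Pax5. A gap of 4102 bp followed.

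The stretch from 5000 to 12000 bp after Igkc, the known place of 3′Eκ, held the strongest Pax5 peak of the window. This peak, chr6:70685456-70686161, scored 1107 and ranked 514, above 96.7% of the list. It began 8705 bp after Igkc. It overlapped the end of the H3K27ac peak chr6:70684628-70685601, which scored 31.05, above 87.7% of its list, and the beginning of chr6:70685802-70686783, which scored 10.9. Between them lay the H3K27ac gap of 200 bp whose sequence is printed above, and the ETS-IRF composite match at chr6:70685701 was in it. Further H3K27ac peaks at chr6:70686949-70687380 and chr6:70687944-70688624 scored 6.80 and 8.16. A Pax5 midpoint in a gap of up to 500 bp between 2 H3K27ac peaks was counted as a comparison added after this gap was seen. None of the 5 Pax5 peaks of the window met it, against 13.3% of the Pax5 list, because the midpoint here, at 70685809, lay just past the gap. A looser criterion, chosen after that count, was a Pax5 peak that overlaps at least 2 H3K27ac peaks, which 1 of the 5 met, against 34% of the list.

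From 12000 to 20000 bp after Igkc, the known place of Ed, lay the second wide H3K27ac peak. The peak chr6:70691238-70695288 was 4051 bp wide, ranked 650 by width, and scored 38.4, above 90.7% of the list. It held the Pax5 peak chr6:70693693-70694628, which scored 177.2, above 42.2% of its list. Flanking it, chr6:70689659-70690210, chr6:70690586-70690883 and chr6:70695615-70695973 scored 5.94, 8.93 and 8.95. The 2 wide peaks, at Jκ-Cκ and at the place of Ed, together made up 63.4% of the H3K27ac bp of the window.

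**Figure D3:**
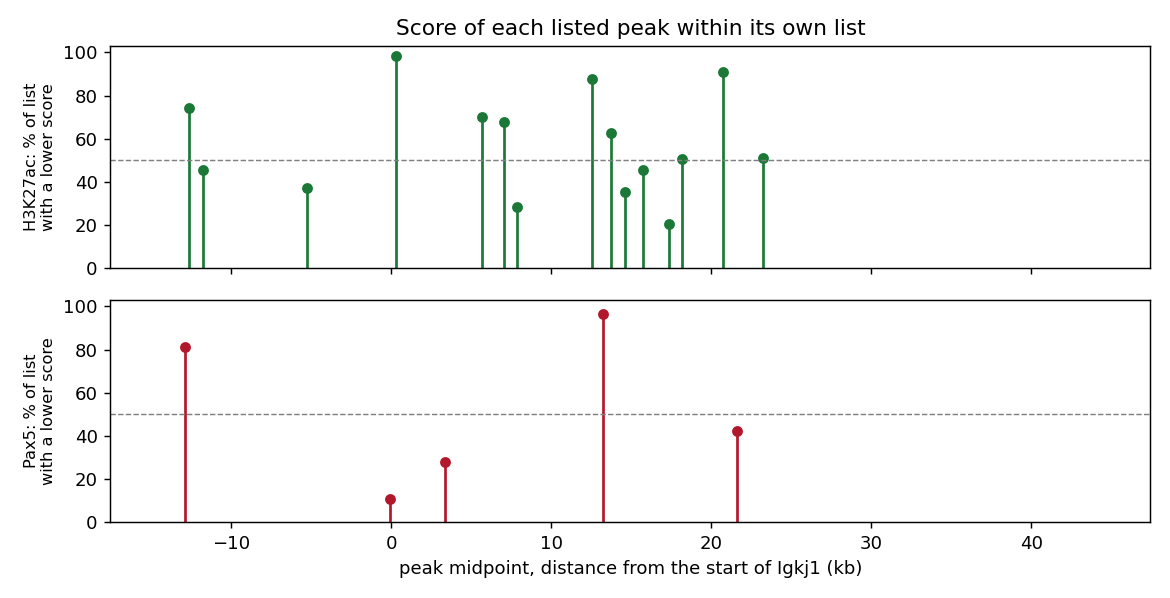
Each point is 1 peak, at its midpoint's distance from Igkj1 in kb, and its height is the percent of its own list with a lower score, with the dashed line at 50%. The wide Jκ-Cκ peak stood at 98.2% for H3K27ac and the peak at the place of 3′Eκ at 96.7% for Pax5.

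In all, 9 of 15 H3K27ac peaks and 2 of 5 Pax5 peaks were above the median score of their list. The order of Pax5 scores from the highest was the place of 3′Eκ, the V-J interval, the place of Ed, the intron and Jκ1. For H3K27ac it began with Jκ-Cκ, the place of Ed and the place of 3′Eκ, so that the Pax5 and H3K27ac orders differed. With 1 library per list, no neighbours in either order could be told apart by a test.

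The last 24027 bp of the window, chr6:70695974-70720000, held no row of any list. Of their 31-mers, 83.3% occurred once in the genome and 15.1% more than 3 times. This stretch includes the 3′ end of Rpia, a pentose phosphate pathway enzyme gene on the minus strand at chr6:70715714-70742226. Its start lay outside the window under an H3K4me3 region, chr6:70740596-70743020. The nearest H3K4me3 region upstream of the window was 456225 bp from its first region.

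**Figure D4:**
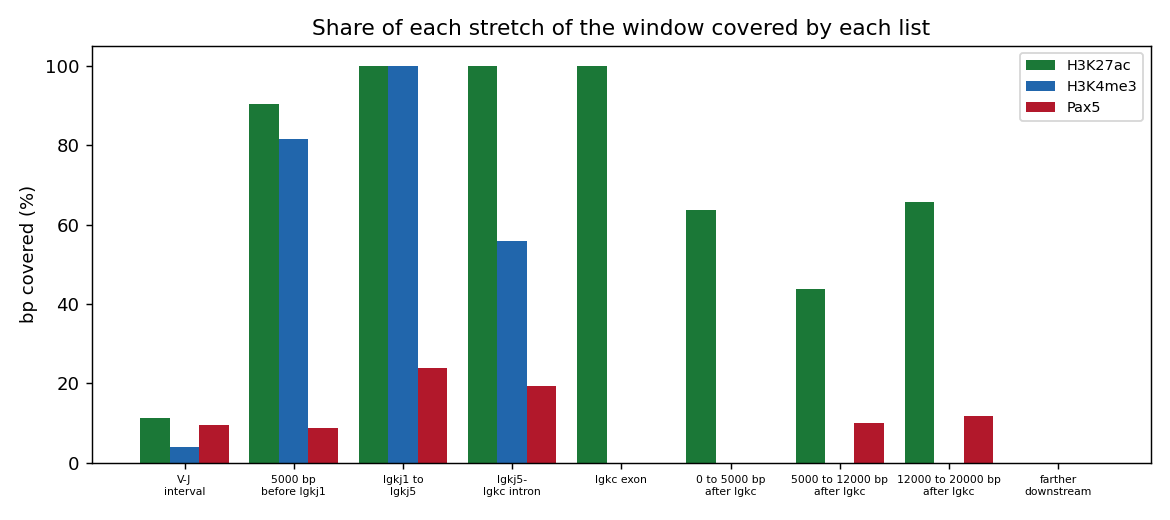
Bars give the percent of bp of each stretch covered by each list, from the V-J interval on the left to the end of the window on the right. The Jκ genes were covered 100% by both histone marks, Igkc by H3K27ac alone, and the last stretch by none.

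The overlaps of the lists were read against those in each whole list. All 5 Pax5 peaks overlapped H3K27ac, as did 79.3% of the Pax5 list. With H3K4me3, 2 of 5 overlapped, against 61% of the list, and these were the peaks at Jκ1 and in the intron. Of the 15 H3K27ac peaks, 5 overlapped Pax5, against 25% of the list, and 2 overlapped H3K4me3, against 28.3%. Of the 7 H3K4me3 regions, 6 overlapped H3K27ac, against 79.7%, and 3 overlapped Pax5, against 52.9%. No test was made of these shares, which rest on few rows.

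Motif matches were counted on both strands in 500 bp around the midpoint of each peak, beside the share of the list with a match in the same length. Matches elsewhere in a wide peak are left out of these counts, and matches just beside a narrow peak are included. GGGACTTTC lay in 1 of 5 Pax5 peaks, that of the intron, against 0.524% of the list, and in none of the 15 H3K27ac windows, against 0.588%. It occurred once in the whole Igk window. GGGACTTTC was chosen as most of the NF-κB site of iEκ. Its match in the intron was therefore set by that choice and cannot be read against the share of the list. The ETS-IRF composite lay in 1 of 5 Pax5 peaks, that at the place of 3′Eκ, against 5.26%, and in 1 of 15 H3K27ac peaks, against 5.8%. CANNTG lay in 4 of 5 Pax5 peaks, against 87.3%, and in all 15 H3K27ac peaks, against 92.6%. Its form CAGGTG, which is also counted in CANNTG, lay in 3 of 5, against 36.6%, and in 5 of 15, against 34.9%. The 3 Pax5 peaks were those of the intron, the place of 3′Eκ and the place of Ed. The RSS heptamer, CACAGTG on either strand, lay in 3 of 5 Pax5 peaks, against 11.3%, and in 2 of 15 H3K27ac peaks, against 14.9%. In the Pax5 peak at Jκ1 the match was the heptamer of Igkj1 itself, which the window holds because it was drawn on the Jκ genes. The matches in the Pax5 peaks of the V-J interval and the place of Ed lay at no Jκ gene. The octamer ATTTGCAT, bound by Oct factors, lay in none of either, against 3.02% and 2.15%. GCGTGAC, the core of the Pax5 motif, was in none, against 7.9% and 1.68%, and nowhere in the window. A match describes letters and is not a binding site.

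The ETS-IRF composite occurred 8 times in the window, and the 5 matches inside a peak are printed because 4 of them lie in the intron or in the places of the downstream enhancers. Capitals mark the match, on the plus strand, and each is named by its first base on chromosome 6.
match at 70669310: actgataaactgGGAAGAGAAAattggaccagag
match at 70676140: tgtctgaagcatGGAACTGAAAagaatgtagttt
match at 70685701: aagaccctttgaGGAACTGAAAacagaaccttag
match at 70686323: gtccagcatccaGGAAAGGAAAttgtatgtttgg
match at 70694506: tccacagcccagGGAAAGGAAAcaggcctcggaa
The match at 70669310 lay under the wide H3K4me3 region, and the match at 70676140 lay 16 bp after the end of the intronic Pax5 peak. The match at 70685701 lay in the Pax5 peak at the place of 3′Eκ, and that at 70694506 in the Pax5 peak at the place of Ed. The match at 70686323 lay in an H3K27ac peak 162 bp past the former.

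The whole window was set beside 38026 autosomal windows of 65000 bp, as a description. H3K27ac covered 33.3% of it, more than in 99.66% of windows, H3K4me3 11.3%, more than in 99.71%, and Pax5 6.28%, more than in 98.5%. The median window was covered 0% by each list. The Igk window was placed on known enhancers and the others were not, so these percentiles do not measure an enrichment. Beside the Vκ part of the locus, chr6:67505630-70655000, the covered share was 21.8 times as high for H3K27ac, 45.4 times for H3K4me3 and 7.24 times for Pax5. The Vκ part is 3149371 bp long and was not placed on known enhancers, so these ratios do not measure an enrichment either. How uniquely reads can be placed in the Vκ part was not examined, and its effect on the ratios was not tested.

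The Igh region, from the first J gene to Ighm with the same distances on both sides, was set beside Igk. The Igk window of 65000 bp was chosen to hold the Igk enhancers, and its distances were copied, which gave 69771 bp at Igh. Whether these distances take in the enhancers of the other loci was not tested. Igh had 15.0% of bp under H3K27ac, 11.9% under H3K4me3 and 12.3% under Pax5. Its highest H3K27ac score was 201.0, above that of Igk, while its highest Pax5 score was 220.0, below that of Igk. With only 5000 bp on both sides, the highest Pax5 score was 135.9 at Igk and 220.0 at Igh, so that order was reversed. These cells carry a heavy chain transgene, and its part in the Igh values was not tested. The T cell receptor regions, added after the data were seen, had lower covered shares of H3K27ac, H3K4me3 and Pax5 than Igk. Tcrb, in 75122 bp, had 4.23% under H3K27ac and no H3K4me3 or Pax5 row, and Tcra, in 128897 bp, had 6.97%, 2.95% and 2.08%. The highest H3K27ac score at Tcra was 92.1, above that of Igk, and its highest Pax5 score was 223.2, above that of Igh and below that of Igk. At Tcrb the highest H3K27ac score was 17.8.

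**Figure D5:**
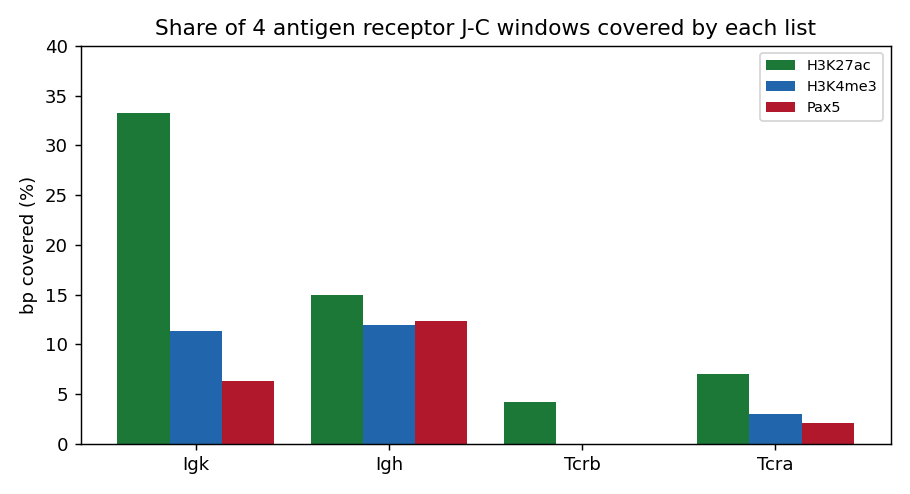
Bars give the percent of bp of each J-C window covered by each list, with the distances on both sides as at Igk. Igk had the highest H3K27ac share, at 33.3%, and Igh the highest Pax5 share, at 12.3%. The windows differ in length, and the distances were chosen for Igk.

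Genes of 24 factors known to bind or organise the locus were looked up within 1000 bp of a start. All 24 had H3K27ac, H3K4me3 and Pax5 there, against 48.4%, 52.7% and 37.5% of 22232 protein-coding genes. The factors were picked by prior knowledge of the locus and are no sample of all genes, so these shares do not measure an enrichment. Spi1, which encodes PU.1, was found under its older name Sfpi1. The highest Pax5 scores were 1764 at Spib, an ETS factor, 1096 at Yy1, a zinc finger factor, and 941.2 at Pou2f1, which encodes Oct-1. As a check of the cell label, H3K27ac and Pax5 lay at 7 of 7 B lineage markers and H3K4me3 at 5 of 7, and no list had a row at the 4 T cell markers. Of the 4 myeloid markers, H3K27ac lay at 3 with scores from 8.01 to 11.4 and H3K4me3 at 2. Klf1 of the 2 erythroid markers had both marks, and no myeloid or erythroid marker had Pax5. The part of other cells in the Igk rows was not tested.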

How the data were processed

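ChIP-seq lists of H3K27ac, H3K4me3 and Pax5 were used, each from 1 library whose reads the authors aligned to mm9. The submitters' notes name Bowtie 0.12.9 and MACS 1.4.2. The deposited H3K27ac and Pax5 lists give a score per peak on a scale that is not named, used here only for ranks within a list. The H3K4me3 list deposited by the authors holds other values, 25 bp bins without a score, whose selection is not given in the sources used here, and bins up to 100 bp apart were joined. Depth is unknown, so no counting interval is given for a peak and no test was made. Exact binomial intervals over windows or list rows served only to say whether a percentile moved under an alternative.

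Positions are those of NCBIM37, the assembly mm9, with GENCODE M1 annotation. Overlap means at least 1 bp. Members, lists, motifs and alternatives were chosen with earlier results of these data known. Named were the 6 genes, every row of the window, Rpia, and the 3 factor genes with the highest Pax5 score. Rows were set beside whole lists, windows of equal length, Igh and T cell receptor regions. Igl J-C pairs, part of the planned comparison, were not analysed here. Interval and motif functions were tested on simulated data. Python 3.11.15, numpy 2.4.6, pysam 0.24.0 and matplotlib 3.10.9 were used.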

Additional observations from a re-analysis of the deposited data

How the results depend on the processing

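With 1 library per list and no counts, small differences in score, width or bin selection could not be weighed, and weak peaks depend on depth that is unknown. No paired analysis was possible because only 1 library stands behind any list. Of 114 alternative values, 61 moved little (counts and covered shares within 1.5 times, percentiles within their exact 95% binomial interval) and 53 moved more.

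With the higher-scoring 50% of the lists, 9 H3K27ac and 2 Pax5 peaks stayed in the window and Pax5 covered 2.92% of it. The windows covered less were then 99.737% for H3K27ac and 95.987% for Pax5. In those lists 2 of the 2 Pax5 peaks overlapped H3K27ac and 0 overlapped H3K4me3. Of the 9 H3K27ac peaks, 3 overlapped Pax5 and 1 overlapped H3K4me3, and 0 of the 7 H3K4me3 regions overlapped Pax5. With bins joined across 500 bp, the window held 2 H3K4me3 regions and the widest ranked 3. Among windows with a protein-coding start, 99.4065%, 99.2685% and 96.3633% were covered less by H3K27ac, H3K4me3 and Pax5. When 50% of a peak had to be covered, 1 of 5 Pax5 peaks overlapped H3K4me3 and 1 of 15 H3K27ac peaks overlapped Pax5. By midpoint, 2 of the 15 did. Shares over the whole lists were not computed for the halved lists, the 50% rule or the midpoint rule, so these overlap counts have no background. CAGGTG was in 2 H3K27ac peaks in 300 bp, against 23.3% of the list, and in 8 in 1000 bp, against 56.3%. The heptamer was in 1 in 300 bp, against 9.36%, and in 5 in 1000 bp, against 26.3%. The ETS-IRF composite was in 3 Pax5 peaks in 1000 bp, against 9.92% of the Pax5 list. With 5000 bp on both sides, Igk had 83.8%, 48.2% and 8.79% of bp under H3K27ac, H3K4me3 and Pax5. Igh had 49.7%, 43.8% and 44.4% under the same lists. Tcrb then had 0% under H3K27ac, and Tcra had 1.16% under H3K4me3 and 1.38% under Pax5.

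Chosen after the data were seen, the looser gap criterion gave 1 Pax5 peak in place of 0, and the spacer search gave 5 J genes with at most 1 nonamer difference in place of 3. Among peaks over 1000 bp from a protein-coding start, all 20 H3K27ac and Pax5 peaks ranked higher in their list. This alternative kept all 20 and took only peaks near a start out of the lists. It thus changed the peaks they were ranked among and not the Igk peaks. Some other changes follow from how the alternatives are defined. The higher-scoring 50% of a list holds the peaks above its median, so the 9 and 2 peaks kept restate those counts. A longer motif stretch holds every match of a shorter one. What caused the remaining changes was not tested.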
